A study of Mus musculus with 8 samples.

Results

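The PIX, GIT and PAK proteins form a signalling complex around the GTPase Rac1, and the genes followed here are the exchange factors *Arhgef6* and *Arhgef7*, the scaffolds *Git1* and *Git2*, the kinases *Pak1*, *Pak2* and *Pak3*, and *Rac1* itself. Each gene was read from the probe set annotated with its symbol alone, and 7 of the 8 genes had such a probe set, of 22180 genes in all. *Pak1* had no match under this rule and is not analysed here. *Arhgef6* was chosen on the comparison reported below, since it belongs to the genes that the study listed as different between the tumors, so its values are given as a description without a test. Its paralog and partners were added by their role. *Arhgef6* and *Pak3* lie on chromosome X, *Arhgef7* on chromosome 8, *Git1* on chromosome 11, *Git2* and *Rac1* on chromosome 5 and *Pak2* on chromosome 16.

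Expression profiles came from 8 tumors, 1 Affymetrix MoGene 2.0 ST array per tumor. The study describes both kinds of tumor as grown under the skin of NSG mice, a strain without mature T, B or NK cells. The 4 DTC tumors followed an injection of bone marrow cells with Matrigel and bFGF. The methods describe the same Matrigel and bFGF mix for injections of tumor cells. The marrow donors were BALB-neuT mice, in which the mouse mammary tumor virus promoter drives an activated rat *Her2/neu* oncogene. By the text of the study, donors of tumor-forming marrow were 19 to 22 weeks old. The text describes late disseminated tumor cells (DTC), whereas the sample labels call the cells early. The study reports that injections of early DTC gave no tumors. The 4 mammary tumors were of the same BALB-neuT strain. By the labels they derive from TUBO cells, a line established from such a tumor, and by the methods they were primary tumors. If the labels hold, traits of a single cell line cannot be told apart from the tumor type. No source states whether each tumor came from its own mouse, so the p-values cover the spread among these 8 tumors only. Correlation between arrays ran from 0.975 to 0.988 over all probe sets.

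In this complex, PIX proteins load Rac1 and Cdc42 with GTP, bind PAK kinases through an SH3 domain and hold on to GIT proteins. GIT proteins inactivate Arf GTPases and bind paxillin, which brings the complex to focal adhesions, and PAK kinases, switched on by GTP-bound Rac1 or Cdc42, act on the actin cytoskeleton. The complex is known for its part in adhesion turnover, migration and the spreading of epithelial and blood cells.

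*Arhgef6* encodes alpha-PIX and *Arhgef7* encodes beta-PIX, and the DNA before their start sites is shown here because the paralogs differed in the tumors. The bases are RefSeq sequence of GRCm38.p6, 5′ to 3′ on the gene's strand, and each stretch covers the 250 bases before an annotated start. Capitals mark matches on either strand to ACGTG or GCGTG, the core letters of the hypoxia response element. The region of the first *Arhgef6* start, chrX:57338730-57338979 on the minus strand, and that of its second listed start, chrX:57326602-57326851 on the minus strand, are followed by that of the first *Arhgef7* start, chr8:11727808-11728057 on the plus strand.
Arhgef6 start 1: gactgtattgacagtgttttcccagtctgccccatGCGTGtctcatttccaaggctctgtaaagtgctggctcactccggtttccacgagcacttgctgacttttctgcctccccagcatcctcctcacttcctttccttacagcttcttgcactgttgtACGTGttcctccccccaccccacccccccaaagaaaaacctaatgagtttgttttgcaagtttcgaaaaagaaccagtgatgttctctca
Arhgef6 start 2: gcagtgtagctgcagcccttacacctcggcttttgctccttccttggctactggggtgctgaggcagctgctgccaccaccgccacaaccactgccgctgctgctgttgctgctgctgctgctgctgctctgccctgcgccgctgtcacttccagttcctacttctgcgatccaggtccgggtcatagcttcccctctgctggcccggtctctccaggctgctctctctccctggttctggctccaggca
Arhgef7 start 1: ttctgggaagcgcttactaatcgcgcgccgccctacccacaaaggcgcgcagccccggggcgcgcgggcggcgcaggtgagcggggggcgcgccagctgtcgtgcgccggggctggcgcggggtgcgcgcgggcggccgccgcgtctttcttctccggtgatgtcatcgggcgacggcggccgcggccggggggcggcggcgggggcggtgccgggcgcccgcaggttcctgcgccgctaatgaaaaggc

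These regions differed in base composition. The *Arhgef7* region was 78.0% G and C with 45 CpG sites, an observed over expected CpG ratio of 1.21. The first *Arhgef6* region was 49.6% G and C with 5 CpG sites (ratio 0.363), close to the median of 6 CpG sites over 32851 mouse promoters of the same length, and the second held 8 CpG sites (ratio 0.334). The remaining *Arhgef7* starts had 30 and 2 CpG sites, so the CpG-rich regions belonged to *Arhgef7* but not to each of its starts. The first *Arhgef6* region held 1 ACGTG and 1 GCGTG, motifs found in 16.6% and 28.2% of all promoters, and the printed *Arhgef7* region held neither. The motifs did not separate the paralogs over all their starts, since the second *Arhgef6* start held neither and the second *Arhgef7* start held 1 GCGTG. Partners held as many or more, with 1 of each at the first *Git1* start, 2 of each at the first *Pak3* start and 2 GCGTG at the *Git2* starts. The 2 ACGTG matches at *Pak3* are 1 CACGTG site read on both strands. Neither gene's printed regions held GCCNNNGGC, the AP-2 motif, which 13.7% of all promoters hold. These are matches of letters, and binding or methylation at these regions is not analysed here.

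*Arhgef6* stood lower in every DTC tumor than in any mammary tumor. Its log2 values were 6.70, 6.45, 6.59 and 7.57 in DTC tumors 1 to 4 and 8.21, 8.42, 8.41 and 8.68 in mammary tumors 1 to 4. DTC tumor 4 lay nearest to the mammary tumors, while the other DTC tumors lay within a narrow band well below it. The means were 6.83 ± 0.51 (SD, n = 4) and 8.43 ± 0.19 (SD, n = 4), which gave a log2 fold change (DTC minus mammary tumors) of -1.60 with a standard error of 0.25 in limma, or 3.04-fold more in mammary tumors. Of the 22180 genes, 16 had a log2 fold change at or below this value. The range over DTC tumors was 1.12 log2 units against 0.47 over mammary tumors, and leaving out DTC tumor 4 moved the *Arhgef6* difference to -1.85. In bulk tumor RNA, fewer cells that express a gene and less RNA per cell cannot be told apart.

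*Arhgef7*, the paralog, did not share this pattern. Its log2 values were 7.67, 7.63, 7.92 and 7.45 in DTC tumors and 7.76, 7.47, 7.88 and 7.55 in mammary tumors. The groups overlapped fully, and DTC tumor 4, the highest DTC tumor for *Arhgef6*, was the lowest for *Arhgef7*. The means were 7.67 ± 0.19 (SD, n = 4) and 7.66 ± 0.19 (SD, n = 4), which left a log2 fold change of 0.00 (95% interval -0.37 to 0.38, limma, adjusted p = 0.997). The interval leaves room for a small change either way.

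The paralogs were then set side by side within each tumor, each as its distance from its own mean over the 8 tumors. *Arhgef6* minus *Arhgef7* on this scale was -0.93, -1.15, -1.30 and 0.16 in DTC tumors and 0.49, 0.99, 0.57 and 1.17 in mammary tumors. All mammary tumors were above all DTC tumors, and DTC tumor 4 alone among the DTC tumors was above 0. The group difference of -1.61 is a description, because *Arhgef6* was selected on this contrast.

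**Figure D1:**
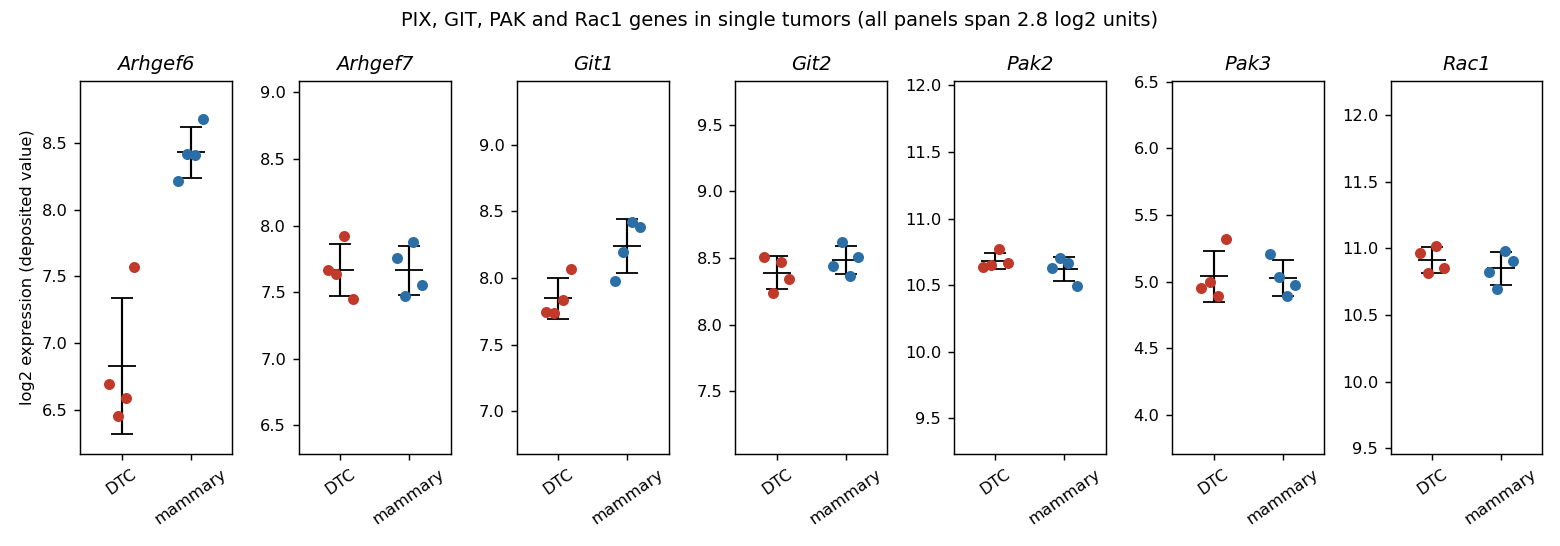
Log2 expression of each measured gene in the 4 DTC tumors (red) and 4 mammary tumors (blue), with the group mean and SD as bars, all panels spanning the same number of log2 units around different levels. *Arhgef6* separates the groups with DTC tumor 4 at 7.57 nearest to the mammary tumors, whereas *Arhgef7*, *Git2*, *Pak2*, *Pak3* and *Rac1* overlap and *Git1* overlaps only through DTC tumor 4.

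Among the scaffolds, *Git1* leaned the same way as *Arhgef6* with a much smaller difference. *Git1*, which joins PIX to paxillin, had log2 values of 7.75, 7.74, 7.84 and 8.07 in DTC tumors and 7.98, 8.20, 8.42 and 8.38 in mammary tumors. A single pair broke the order, DTC tumor 4 being above mammary tumor 1. The log2 fold change was -0.39 (95% interval -0.76 to -0.02), with p = 0.0392 before and adjusted p = 0.321 after adjustment in limma, and a two-sided exact permutation p = 0.0571. With 4 tumors a group the smallest p such a permutation test can give is 0.0286.

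*Git2*, the second scaffold, had log2 values of 8.51, 8.24, 8.47 and 8.34 in DTC tumors and 8.44, 8.62, 8.37 and 8.51 in mammary tumors. The groups overlapped, and its spread over the 8 tumors was too small for the interquartile filter (a range above 0.25) that decided which probe sets were tested. In limma without that filter its log2 fold change was -0.10 (95% interval -0.33 to 0.13, limma, adjusted p = 0.799).

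The kinases showed no separation of the tumors. *Pak2*, the widely expressed kinase of the group, had log2 values of 10.64, 10.66, 10.77 and 10.67 in DTC tumors and 10.63, 10.70, 10.67 and 10.49 in mammary tumors. The groups overlapped. The log2 fold change of *Pak2* was 0.06 (95% interval -0.14 to 0.26, limma without the filter, adjusted p = 0.860).

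*Pak3*, a kinase known mainly from neurons, had log2 values of 4.95, 5.00, 4.89 and 5.32 in DTC tumors and 5.21, 5.03, 4.89 and 4.98 in mammary tumors. The groups overlapped, and every value was below the array medians of 5.36 to 5.42. Like *Arhgef6* it lies on chromosome X, but its log2 fold change was 0.01 (95% interval -0.27 to 0.29, limma without the filter, adjusted p = 0.985).

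*Rac1*, the GTPase that PIX activates and PAK senses, had log2 values of 10.97, 10.81, 11.02 and 10.85 in DTC tumors and 10.82, 10.69, 10.98 and 10.91 in mammary tumors. The groups overlapped. The log2 fold change of *Rac1* was 0.06 (95% interval -0.16 to 0.29, limma without the filter, adjusted p = 0.877).

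Of the 6 measured genes other than *Arhgef6*, 2 passed the interquartile filter and 0 were called at an adjusted p of at most 0.05, a threshold passed by 0.143% of the 18877 probe sets tested. Before adjustment *Git1* alone of these 2 had p at or under 0.05, on the lower side, as did 14.8% of all probe sets tested in either direction. None of the 6 separated the groups, against 9.64% of all genes. The lower side of that background, DTC tumors all below mammary tumors, held 5.76% of all genes and *Arhgef6* among them. Over the 6 genes the median log2 fold change was 0.01, the same as over all 22180 genes.

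Other regulators of Rac were read from lists of genes by role. The 6 lists held 92 genes, of which 84 were measured and 31 tested. None passed the adjusted p, with or without the filter, and 9 of the 31 (29.0%, against 14.8% of all probe sets tested) had p at or under 0.05 before adjustment, 4 higher and 5 lower in DTC tumors. The groups did not overlap for 14 of the 84 (16.7%, against 9.64% of all genes), 6 higher and 8 lower. The median log2 fold change over the 84 genes was 0.04.

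The list of Rac exchange factors besides the PIX genes had 19 measured genes and also takes in *Elmo1*, *Elmo2* and *Elmo3*. Of the 19, 9 means were higher in DTC tumors and 10 were lower, the median log2 fold change being -0.03. *Farp1*, an exchange factor with a FERM domain, had log2 values of 8.78, 8.59, 8.46 and 9.01 in DTC tumors and 9.48, 9.22, 9.37 and 9.50 in mammary tumors. All DTC tumors lay below all mammary tumors, with DTC tumor 4 again the nearest. Its log2 fold change was -0.68 (standard error 0.17, limma, adjusted p = 0.136). *Dock5*, an exchange factor of the DOCK family, also did not overlap, at -0.50 (limma, adjusted p = 0.245). The range over the 19 genes, -0.68 to 0.29, did not reach the *Arhgef6* value.

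Among 8 other GTPases of the Rac and Cdc42 type, *Rac2*, the form known from blood cells, had the largest difference. Its log2 values were 8.29, 8.49, 8.34 and 8.62 in DTC tumors and 8.24, 7.61, 8.27 and 7.99 in mammary tumors. The groups were separated by a narrow gap, and the difference was 0.41 (limma without the filter, adjusted p = 0.360). *Rhoj*, a relative of Cdc42 known from endothelial cells, stood at -0.30 (limma, adjusted p = 0.453) with overlapping groups.

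The proteins that switch Rac off or hold it in the cytosol had 3 of 13 means lower in DTC tumors, against 48.3% of all genes, and a median log2 fold change of 0.09. This share was not tested. *Arhgdib*, a GDP dissociation inhibitor abundant in blood cells, had log2 values of 6.99, 6.64, 6.99 and 6.88 in DTC tumors and 6.27, 6.23, 6.04 and 5.83 in mammary tumors. These did not overlap, and the log2 fold change was 0.78 (standard error 0.17, limma, adjusted p = 0.102). *Chn2*, a GTPase-activating protein for Rac, stood at 0.60 (limma, adjusted p = 0.251) with overlapping groups. In this list 4 of 7 tested genes were higher with p at or under 0.05 before adjustment, a level passed by 14.8% of all probe sets tested. The others were *Racgap1* at 0.43 and *Abr* at 0.38, named after their values were seen. The leukocyte markers described below also had mostly higher means in DTC tumors, and their part in the *Arhgdib* and *Rac2* differences was not tested.

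Adhesion proteins that meet GIT and PIX had a median of -0.03 over 19 genes, with 8 means higher and 11 lower in DTC tumors. In 4 of the 19 (21.1%, against 5.76% of all genes) the DTC tumors were lower without overlap, and in 0 higher. *Ptk2b*, the kinase PYK2 and a relative of focal adhesion kinase, had log2 values of 7.59, 7.29, 7.40 and 7.74 in DTC tumors and 8.26, 8.12, 8.40 and 8.23 in mammary tumors. All DTC tumors lay below all mammary tumors. The log2 fold change was -0.75 (standard error 0.16, limma, adjusted p = 0.102). *Vcl*, vinculin, stood at -0.44 (limma, adjusted p = 0.304), also without overlap. The others without overlap, named after their values were seen, were *Nck1* at -0.41 (limma, adjusted p = 0.314) and *Pxn*. *Pxn*, paxillin, stood at -0.21 (limma without the filter, adjusted p = 0.441).

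Of the 5 group II PAKs and PIX-binding phosphatases, *Pak6* at -0.24 (limma, adjusted p = 0.694) and *Ppm1f* at -0.21 (limma, adjusted p = 0.620) were farthest from 0. The 20 actin effectors spanned only -0.26 to 0.24, from *Ssh3*, a cofilin phosphatase, to *Wasf3*, a member of the WAVE complex. Their adjusted p in limma was 0.453 for *Ssh3* and, without the filter, 0.620 for *Wasf3*. In this list 15 of the 20 means were higher in DTC tumors, with a median of 0.15.

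Of the 5 list genes that were lower with p at or under 0.05 before adjustment, 4 lie on chromosome 14. They are *Farp1*, *Dock5*, *Ptk2b* and *Vcl*, and *Arhgap22* at -0.24 lies there too. All 5 list genes of that chromosome had lower means in DTC tumors. In 4 of them the DTC tumors lay below the mammary tumors without overlap, against 5.76% of all genes. That share was not counted for chromosome 14 alone. Chromosome 14 as a whole ran the same way, with a median log2 fold change of -0.36 over 466 genes with a mean of at least 5, of which 83.7% were lower. Without its genes, a step chosen after seeing the data, the 79 other list genes had a median of 0.05, and 1 of them, *Nck1* at -0.41, was lower with p at or under 0.05 before adjustment. None of the measured PIX, GIT, PAK and Rac1 genes lies on chromosome 14.

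**Figure D2:**
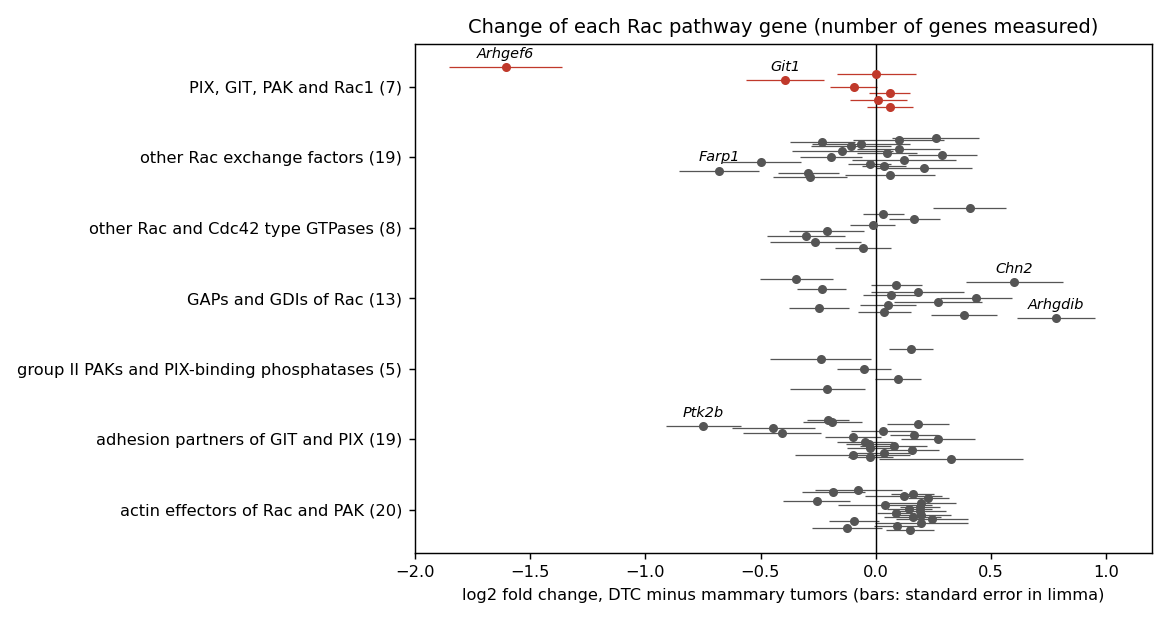
Log2 fold change, DTC minus mammary tumors, of the 7 measured PIX, GIT, PAK and Rac1 genes (red) and of the 84 genes in 6 lists by role (grey), with the standard error from limma as bars. *Arhgef6* at -1.60 lies outside the range of all lists, whose lowest gene is *Ptk2b* at -0.75 and highest *Arhgdib* at 0.78.

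The next question was whether genes beside *Arhgef6* on chromosome X differed too. The 8 nearest genes on each side with a probe set of their own were read in the order of the annotation (GRCm38.p6). Their log2 fold changes ran from -0.63 to 0.37 with a median of 0.02, so none came near -1.60. Of the 16 neighbours 5 were tested, 3 had p at or under 0.05 before adjustment (14.8% of all probe sets tested) and 0 passed the adjusted p. The groups did not overlap for 7 of 16 (43.8%, against 9.64% of all genes), 4 lower and 3 higher, and 11 of the 16 had a mean under 5 in both groups.

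The next gene in coordinate order, *Rbmx*, which encodes an RNA-binding splicing protein, had log2 values of 8.89, 8.87, 8.73 and 8.91 in DTC tumors and 9.36, 9.05, 9.24 and 9.34 in mammary tumors. The DTC tumors were all lower, at -0.40 (limma, adjusted p = 0.280). *Snord61*, a small nucleolar RNA within the span of *Rbmx*, had log2 values of 10.48, 10.68, 10.45 and 10.73 in DTC tumors and 11.32, 11.68, 10.89 and 10.96 in mammary tumors. These too did not overlap, the difference being -0.63 (limma, adjusted p = 0.219), and since the span of *Rbmx* holds *Snord61* they are not separate observations.

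Beyond these the directions were mixed. *Htatsf1* at -0.15 and the dim *Brs3* at -0.17 were lower without overlap, *Fhl1* at 0.37 (limma, adjusted p = 0.328), *Gpr101* at 0.28 (limma, adjusted p = 0.399) and the dim *Mir504* at 0.28 were higher without overlap. The remaining 9 neighbours overlapped between the groups, among them *Cd40lg* at -0.04, which directly precedes *Arhgef6*, *Gm14718* at 0.24 and *Vgll1* at 0.10. *Adgrg4* stood at -0.02, *Map7d3* at -0.09, *4930550L24Rik* at -0.14, *Fgf13* at 0.06, *Gm364* at 0.10 and *F9* at 0.13. Over 417 chromosome X genes with a mean of at least 5 the median was -0.08, with 63.5% lower in DTC tumors.

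**Figure D3:**
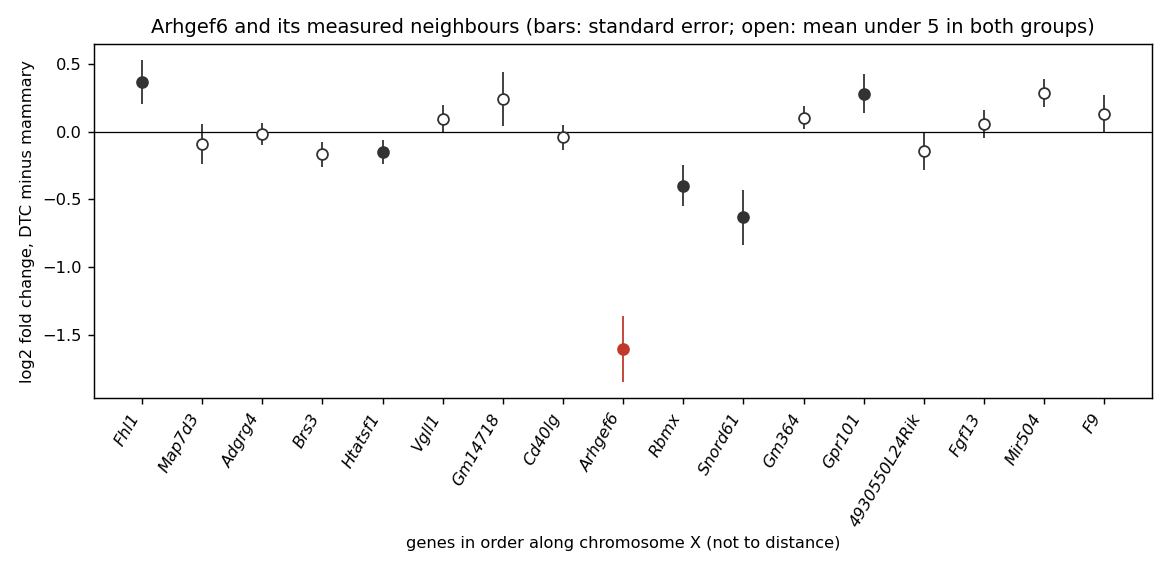
Log2 fold change, DTC minus mammary tumors, of *Arhgef6* (red) and its 8 measured neighbours on each side in their order along chromosome X, not to distance, with the standard error from limma as bars and open symbols for a mean under 5 in both groups. *Arhgef6* at -1.60 lies below all neighbours, of which *Snord61* at -0.63 and *Rbmx* at -0.40 are the lowest.

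Genes with a profile most like that of *Arhgef6* were found by the root mean square difference between profiles over the 8 tumors, each centred on its own mean, among 13861 genes with a mean of at least 5. This measure takes in the group difference on which *Arhgef6* was selected, so the names describe likeness alone. The nearest was *Scgb2b7*, a secretoglobin of chromosome 7, at 0.234 log2 units, followed by *Nxf7*, an RNA export factor family member of chromosome X, at 0.25. *Plekhb1*, a membrane-binding protein of chromosome 7, followed at 0.276, *Meltf*, an iron-binding membrane protein of chromosome 16, at 0.308, and *Paqr6*, a membrane receptor of chromosome 3, at 0.313. All 5 differed between the groups by a size like that of *Arhgef6*, with log2 fold changes of -1.46, -1.65, -1.17, -1.72 and -1.32 in this order. *Meltf*, under its older symbol *Mfi2*, belongs to the genes the study listed on these tumors. In each of the 5, as in *Arhgef6*, DTC tumor 4 had the highest value of the DTC tumors.

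The partners of *Arhgef6* were spread widely on this measure. *Git1* was nearest among them at rank 478 with a difference of 0.650, then *Git2* at rank 4049 and *Pak3* at rank 5261. *Rac1* at rank 8168, *Pak2* at rank 8307 and *Arhgef7* at rank 9116, with a difference of 0.921, were farther away. The plot of centred profiles shows *Arhgef7* near 0 in all tumors while the 5 alike genes cross with *Arhgef6*.

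**Figure D4:**
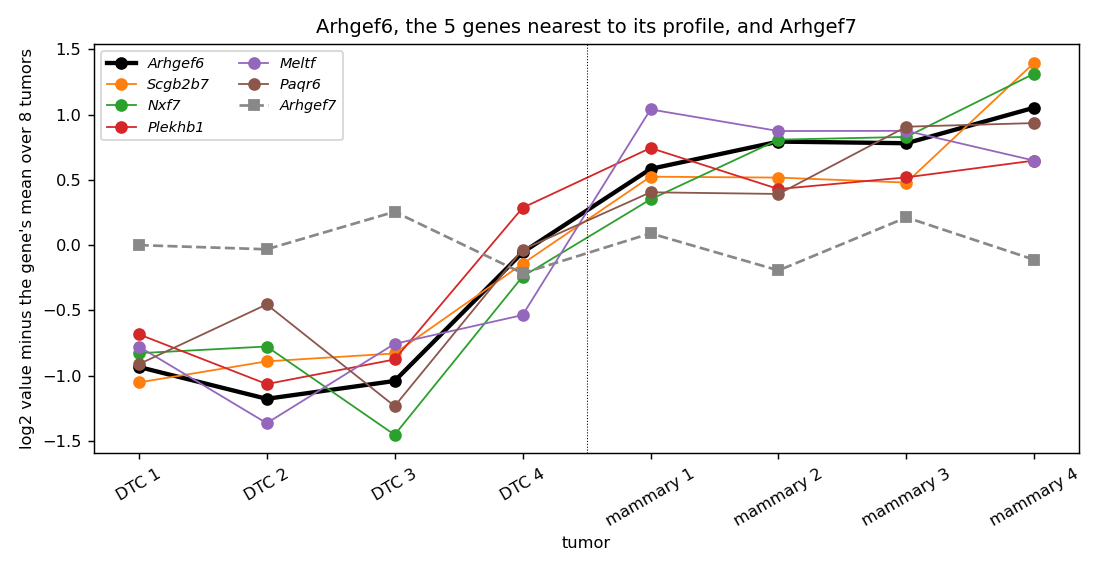
Log2 value minus the gene's mean over 8 tumors for *Arhgef6* (black), the 5 genes with the nearest profiles (colours) and *Arhgef7* (grey, dashed), by tumor. *Arhgef6* and the alike genes are lower in every DTC tumor than in any mammary tumor, with DTC tumor 4 the highest DTC tumor, close to the mammary tumors for *Plekhb1* and far from them for *Meltf*, whereas *Arhgef7* stays between -0.22 and 0.25.

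Alpha-PIX is known from blood cells and other non-epithelial cells, so marker lists of cell types were read beside it. The summed level of 8 epithelial markers, among them keratins, was 13.23 to 13.49 in log2 units in DTC tumors and 13.31 to 13.49 in mammary tumors, and 3 of the 8 means were higher and 5 lower in DTC tumors. *Cldn3* at -0.39 and *Epcam* at -0.38 were lower without overlap, as were 5.76% of all genes. The keratins *Krt18* at 0.30, *Krt8* at 0.26 and *Krt19* at 0.13 had higher means with overlap. The 12 leukocyte markers summed to 11.84 to 12.30 and 11.77 to 12.24. Of the 12 means 9 were higher in DTC tumors, where *Arhgef6* was lower, with *Ptprc* at 0.54 and *Itgb2* at 0.35, both with overlap. The other 3 were lower, *Lyz2* at -0.27, *Csf1r* at -0.06 and *Adgre1* at -0.01, also with overlap. The summed levels overlapped in both lists. The 7 measured T and B lymphocyte markers were mostly dim and summed to 7.15 to 7.45 against 7.03 to 7.14. The largest changes were in the dim *Cd3g* at 0.99 and *Cd79a* at 0.33, the latter with overlap. In this list 5 means were higher in DTC tumors and 2 were lower, *Cd3d* at -0.20 and *Ms4a1* at -0.09.

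Among the Schwann cell markers, *S100b* and *Sox10* were lower in all DTC tumors, as *Arhgef6* was, and the others overlapped. Of all genes, 5.76% were lower in this way. The 5 measured markers summed to 9.86 to 10.01 in DTC tumors and 10.18 to 10.50 in mammary tumors without overlap, a sum to which *Sox10*, with means of 9.64 and 10.01, contributed most. *S100b*, a calcium-binding protein, had log2 values of 4.60, 4.93, 5.27 and 5.17 in DTC tumors and 5.91, 6.27, 6.57 and 6.32 in mammary tumors, a difference of -1.27 (limma, adjusted p = 0.0497, and 0.0561 without the interquartile filter, which misses the threshold of 0.05). It belongs to the genes the study listed on these tumors. *Sox10*, a transcription factor of neural crest cells, stood at -0.37 (limma, adjusted p = 0.312). *Mbp* at 0.01, *Foxd3* at -0.02 and *Gfap* at -0.08 differed little. Whether the number of Schwann cells differed, and any part of such cells in the *Arhgef6* difference, was not tested.

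In the fibroblast list the ranges were 11.71 to 12.09 in DTC tumors and 11.94 to 12.35 in mammary tumors, with *Lum* at -1.23 (limma, adjusted p = 0.128), which did not overlap, and *Dcn* at -0.85 (limma, adjusted p = 0.245). *Pdgfra* stood at -0.42, and *Col1a1*, *Col1a2*, *Col3a1*, *Pdgfrb* and *Fap* lay between -0.10 and 0.06. Endothelial markers summed to 10.27 to 10.55 and 10.21 to 10.58, with *Emcn* at 0.26 and *Tek* at -0.20. Skeletal muscle markers ran from 7.93 to 8.13 and from 7.79 to 8.09, with *Myh4* at 0.33 and *Mylpf* at 0.28, and neuronal markers from 9.45 to 9.56 and from 9.35 to 9.47, with *Syt1* at 0.32 and *Tubb3* at 0.20. The summed levels overlapped in all of these lists. *Xist*, the RNA of the inactive X chromosome, was at -0.02, with values of 11.56 to 11.87 in DTC tumors and 11.65 to 11.84 in mammary tumors.

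**Figure D5:**
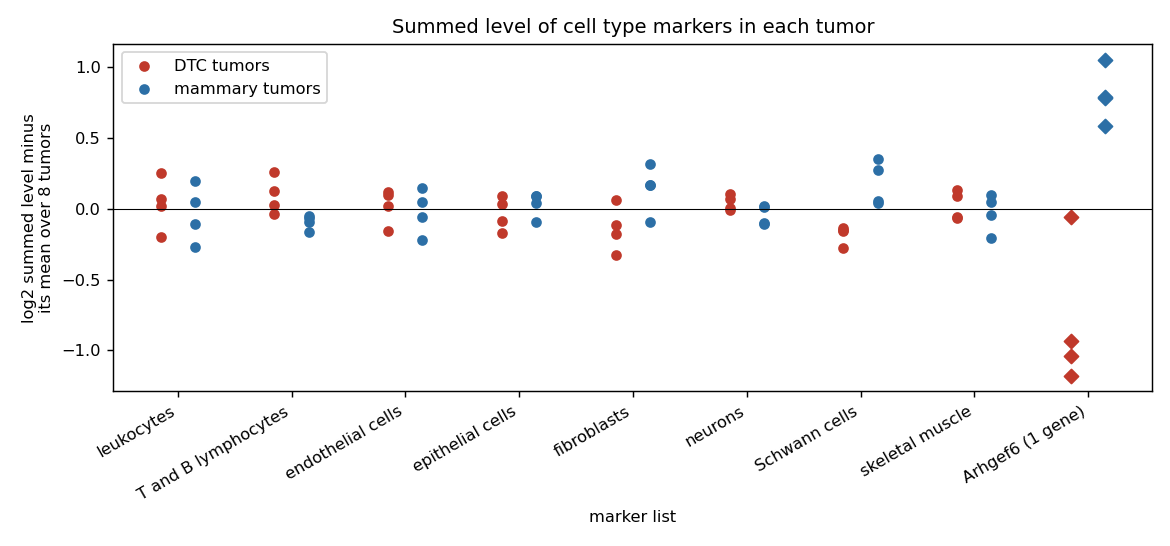
Log2 summed level of each marker list minus its mean over 8 tumors, for DTC tumors (red) and mammary tumors (blue), with *Arhgef6* on the same scale as diamonds. The sum of the Schwann cell list, to which *Sox10* contributes most, is lower in all DTC tumors, as *Arhgef6* is. The T and B lymphocyte list is slightly higher in all of them, and the other lists overlap.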

How the data were processed

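Log2 expression values of 8 tumors, 1 per probe set for 41345 probe sets, were used as deposited. The authors had loaded the arrays in oneChannelGUI and applied sketch-quantile normalization. The summarization of probes is not given in the sources used here. Deposited log2 values ran from 1.54 to 14.3, with array medians of 5.36 to 5.42.

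Symbols came from the platform annotation and a RefSeq table (GRCm38.p6). Of the probe sets 23521 had 1 symbol, 1820 several and 16004 no listed gene. Each of the 7 measured genes had a single probe set. For other genes the one with the highest mean was taken.

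The groups were compared by limma (version 3.58.1, R 4.3.3) on 18877 probe sets whose interquartile range exceeded 0.25, and p-values were adjusted by Benjamini-Hochberg, called at 0.05. The fit was tested on simulated data. Single values were compared by two-sided exact permutation tests over all splits of the 8 tumors into groups of 4, in Python 3.11.15. Precision is limited by the number of arrays.

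The genes named by rule were the PIX, GIT, PAK and Rac1 genes, in each role or marker list the 2 with the largest change unless a gene passed the adjusted p, the 8 neighbours on each side and the 5 genes with the nearest profiles. Further list genes were named outside this rule, after their values were seen. These genes, lists and rules were chosen with earlier results of these data known. Alternatives covered filters, normalization, the variance model, array weights, the replicate block and leaving out each tumor.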

Additional observations from a re-analysis of the deposited data

Results flagged for a closer look

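Of 70 groups of 4 tumors examined for a lone high or low value, 2 held one, and both are dim neighbours of *Arhgef6* on chromosome X. *Map7d3* was at 3.48 in DTC tumor 1, with the other DTC tumors at 4.08 to 4.09. *Gm364* was at 2.77 in DTC tumor 2, with the other DTC tumors at 2.88 to 2.90. By chance about 5 in 100 groups are picked out at this critical value. *Arhgef6* in DTC tumor 4 was not among them: its gap to the nearest DTC tumor took 0.782 of the range, under the critical value.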

How the results depend on the processing

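*Arhgef6* kept its direction under all 18 alternatives, from -1.85 to -1.48 on the log2 scale with 1 tumor left out and from -1.62 to -1.58 under the others. The *Arhgef6* minus *Arhgef7* difference ran from -1.93 to -1.44. *Arhgef7* itself lies at 0 and changed sign: its log2 fold change was -0.0137 with median centring, -0.0446 with array weights and -0.0815 to 0.0755 with 1 tumor left out. Of the other measured PIX, GIT, PAK and Rac1 genes, 0 passed the adjusted p under any alternative.

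The 27 probe sets past the adjusted p became 15 with an interquartile range above 0.5, 273 with 1 probe set per gene, 98 without probe sets with a mean under 5, 80 with a robust trended variance and 55 with array weights; the cause was not tested. With 1 tumor left out they were 9 (without mammary tumor 3) to 47 (without DTC tumor 3). With the replicate number as a block 7 probe sets were called. The labels do not say that the numbers pair tumors, and same-numbered tumors correlated at 0.007, 0.015, 0.168 and 0.194, with 2 of 4 matching best with their own number.

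With 1 probe set per gene 3 list genes passed: *Farp1* (-0.68, limma, adjusted p = 0.0424), *Ptk2b* (-0.75, limma, adjusted p = 0.0248) and *Arhgdib* (0.78, limma, adjusted p = 0.0255). The cause was not tested. List genes lower with p at or under 0.05 before adjustment were 5 and, in alternatives chosen after seeing the data, 1 without chromosome 14, 9 without the interquartile filter, 2 with it at 0.5, and 3 without DTC tumor 1, mammary tumor 1 or mammary tumor 4. Taking the mean of a gene's probe sets leaves the PIX, GIT, PAK and Rac1 values as they are. Of 35 single-gene changes under 18 alternatives, 3 values newly passed, those named above. Genes at or under the filter in a setting had no adjusted p there. Besides *Arhgef7*, only *Pak3*, *Adgrg4* and *Map7d3*, all near 0, changed sign under any of them. With 4 tumors a group, small changes are not detectable singly.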
